A study of Mus musculus with 30 samples.

Results

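The comparison was between mouse embryonic fibroblasts carrying a non-acetylatable MyoD and fibroblasts carrying wild-type MyoD, after 24 h in differentiation medium with beta-estradiol. All cells came from MyoD-/-/Myf5-/- animals. They had been transduced with a retrovirus for MyoD fused to the hormone binding domain of the estrogen receptor, a fusion that beta-estradiol switches on. ER-MyoD wt holds the wild-type protein, and ER-MyoD RRR holds point mutations at lysines 99, 102 and 104. The groups were taken by their titles, which gave 3 arrays of ER-MyoD RRR and 3 of ER-MyoD wt at 24 h, that is 6 of the 30 arrays of the series. The 3 arrays of cells with an empty retrovirus at 24 h, in the same medium and hormone, show the background, and the 3 arrays of each fusion at 12 h serve one further comparison. The labels do not say whether replicates were separate cultures, and the spread behind the p-values may therefore be technical. Each ER-MyoD group is a transduced fibroblast population expressing a hormone-dependent fusion from a retrovirus, not a muscle cell with its own Myod1 gene.

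MyoD is a basic helix-loop-helix transcription factor that binds E-box sequences together with E proteins and can turn fibroblasts into skeletal muscle cells. It first drives the regulator myogenin and cell cycle exit, and later the genes of the contractile apparatus, the neuromuscular junction and muscle metabolism. The acetyltransferases p300 and PCAF acetylate MyoD on lysines next to its DNA-binding region. In the RRR protein these lysines are arginines, which keep the positive charge and cannot take an acetyl group.

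RNA was measured on Affymetrix Mouse Genome 430 2.0 arrays. The deposited values are linear signal intensities, and signals given per array below are these values, in the order of replicates 1, 2 and 3, with ER-MyoD wt before ER-MyoD RRR. Differences are ER-MyoD RRR minus ER-MyoD wt on the normalised log2(signal + 16) scale, with the standard error of a limma model as ±, and n = 3 arrays a group throughout. This scale understates the change of dim genes. Adjusted p-values are from that limma model, two-sided and Benjamini-Hochberg adjusted over 18193 genes, with 0.05 as the threshold. Single arrays are named by fusion and replicate, as RRR array 1 or wt array 1. Each of the 6 arrays resembled its own group most, with correlations within a group from 0.946 to 0.968. Array 3 of ER-MyoD wt stood apart most, at 0.946 and 0.957 with the other two, and without it 839 genes passed the comparison below. Array medians ran from 39.2 to 59.2 in ER-MyoD wt and from 52.0 to 54.0 in ER-MyoD RRR, and the part of this unequal spread in the results was not tested.

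Myod1, the gene carried by the retrovirus, gave signals of 745, 451 and 639 in ER-MyoD wt, 306, 580 and 528 in ER-MyoD RRR and 214, 213 and 256 with the empty retrovirus. The arrays of the fusions overlapped on this probe set, and the difference of -0.38 ± 0.35 did not pass (adjusted p = 0.679). No source used here says whether the probe set lies in the sequence that the retrovirus carries. Whether the fusions were present in equal amounts was therefore not tested. Myf5, deleted in the cells, gave 479, 500 and 291 in ER-MyoD wt, 201, 254 and 412 in ER-MyoD RRR and 388, 597 and 335 with the empty retrovirus. No source used here says whether these probe sets lie in the deleted parts, so signal in cells with the empty retrovirus checks neither deletion.

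Of 18193 genes, 975 passed at 24 h, or 5.36%. ER-MyoD RRR was higher for 608 of them (3.34%) and lower for 367 (2.02%). A difference of at least 1 on the log2 scale was found for 143 of the higher genes and 85 of the lower genes, and 2 of the higher genes reached 2. The median size was 0.75 among the higher genes and 0.76 among the lower genes. The balance of directions depended on scaling: with each array centred on its median in place of quantile normalisation, 176 genes were higher and 299 lower, so that the higher share fell from 62.4% to 37.1%. The median of all genes was 0.00 in the quantile-normalised values and -0.08 in the median-centred ones. Without RRR array 1 the higher genes numbered 402, and without wt array 1 or 2 the lower genes numbered 236 and 241.

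**Figure D1:**
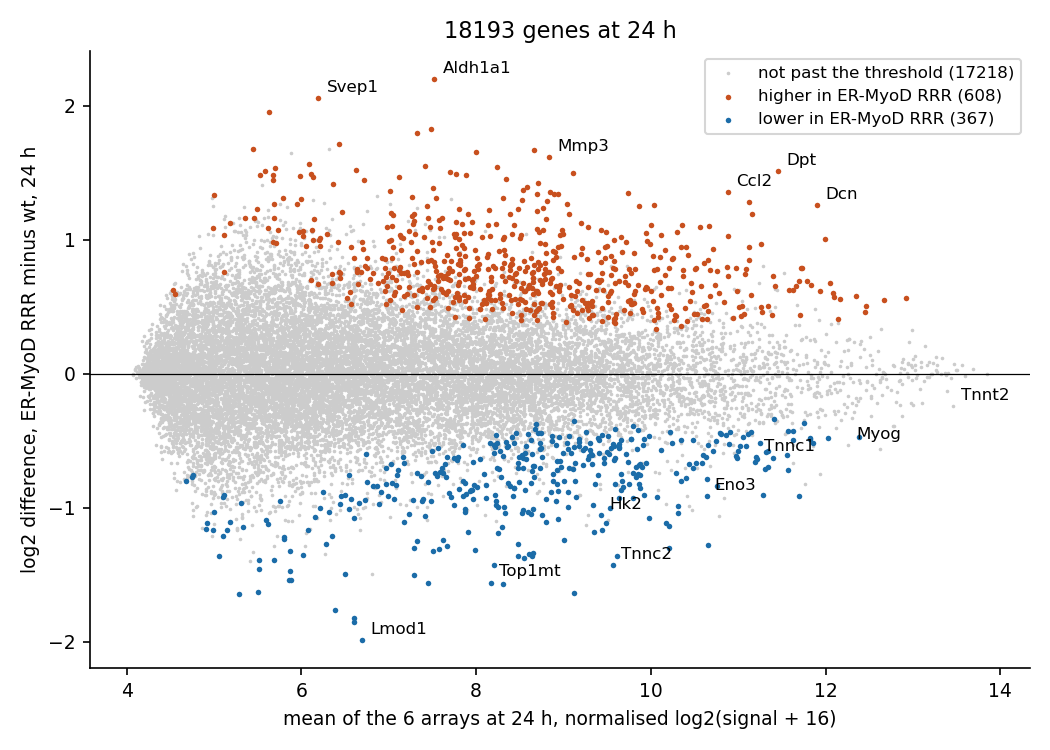
Each point is 1 of 18193 genes at 24 h, with the mean of the 6 arrays on the x axis, as normalised log2(signal + 16), and the log2 difference of ER-MyoD RRR minus wt on the y axis. The 608 genes higher in ER-MyoD RRR and the 367 lower are coloured; Lmod1 lies lowest among the called genes and Aldh1a1 highest, while Myog and Tnnt2 lie near the bright end with differences that did not pass.

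Genes that MyoD had already moved at 12 h were taken from other arrays, as those past the threshold and at least 1 apart on the log2 scale between ER-MyoD wt and the empty retrovirus at 12 h. The induced genes numbered 638 (3.51% of all genes) and the repressed genes 514 (2.83%). Of the 638 induced genes, 92 (14.4%) were lower in ER-MyoD RRR at 24 h and 27 (4.23%) were higher. Their median difference was -0.26. Of the 514 repressed genes, 118 (23.0%) were higher in ER-MyoD RRR and 3 (0.584%) were lower, with a median of 0.34. Among all genes the shares were 2.02% lower and 3.34% higher, and the median was 0.00. The choice of these genes used the ER-MyoD wt and empty retrovirus arrays at 12 h, none of which is an array at 24 h.

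The contractile apparatus gave few calls among many small differences. Of 39 measured genes of thick and thin filaments, Tnnc2, Myl4 and Tnnc1 were lower in ER-MyoD RRR (7.69%) and Tpm3 was higher (2.56%), while 35 did not pass. Among all genes 2.02% were lower and 3.34% higher. The median over the list was -0.39, with 30 members below 0. Tnnc2, which encodes the calcium-binding troponin C of fast muscle, gave 1029, 1235 and 1439 in ER-MyoD wt, 422, 435 and 463 in ER-MyoD RRR, and 8.28, 8.26 and 6.80 with the empty retrovirus. The 3 groups did not overlap, and its difference was -1.43 ± 0.31 (adjusted p = 0.00407). Myl4, an essential myosin light chain of embryonic muscle, gave 736, 771 and 822 against 319, 311 and 325, a difference of -1.24 ± 0.27 (adjusted p = 0.00423). A dimmer probe set of Myl4 gave 0.24, and with the mean of its probe sets Myl4 did not pass. Tnnc1, troponin C of slow and cardiac muscle, gave 2545, 3247 and 3035 against 1685, 1809 and 1811, a difference of -0.63 ± 0.15 (adjusted p = 0.00867). Its call was lost without wt array 3 (adjusted p = 0.0539). Tpm3, a tropomyosin that many cell types express, gave 1379, 1517 and 1294 against 2547, 2244 and 2152, a difference of 0.79 ± 0.15 (adjusted p = 0.00122). It did not pass with median-centred arrays (0.0844) or with the mean of its probe sets.

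Several abundant sarcomere transcripts had non-overlapping arrays and yet did not pass; of all genes, 19.8% had arrays of the groups that did not overlap. Skeletal actin Acta1 gave 1934, 2102 and 1916 in ER-MyoD wt and 775, 994 and 1021 in ER-MyoD RRR, a difference of -1.02 ± 0.38 (adjusted p = 0.132). Its standard error comes from a spread shared with the other groups of the series, and in a fit of the 6 arrays alone its adjusted p was 0.00616. In that fit 9 of the 39 filament genes were lower. Differences were -1.06 ± 0.42 for the fast myosin light chain Mylpf, -0.99 ± 0.40 for fast troponin T Tnnt3 and -0.75 ± 0.38 for slow troponin I Tnni1. These genes too passed in the fit of the 6 arrays alone (adjusted p = 0.00906, 0.00931 and 0.0078). Cardiac actin Actc1 and troponin T Tnnt2, among the brightest, differed by -0.39 ± 0.28 and -0.24 ± 0.23. Tnnt2 gave 12130, 15821 and 11929 in ER-MyoD wt, 10767, 10160 and 11000 in ER-MyoD RRR, and 18.6, 8.72 and 12.5 with the empty retrovirus. Both fusions thus carried this transcript far above the empty retrovirus. In whole cultures, fewer cells of a type and less RNA per cell cannot be told apart.

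Among 38 measured genes of the Z-disc, the M-band and the myosin chaperones, Ankrd2, Synpo2l and Unc45b were lower (7.89%), and Ankrd1 and Smyd1 were higher (5.26%). The shares of all genes were 2.02% lower and 3.34% higher. Unc45b, the chaperone that folds myosin in striated muscle, gave 1452, 1621 and 1257 in ER-MyoD wt and 770, 651 and 546 in ER-MyoD RRR, a difference of -1.08 ± 0.26 (adjusted p = 0.0101). Ankrd2, an ankyrin repeat protein of the sarcomere, gave 252, 232 and 260 against 98.2, 78.8 and 85.8, a difference of -1.50 ± 0.38 (adjusted p = 0.0157). Synpo2l, a Z-disc protein, differed by -1.30 ± 0.35 (adjusted p = 0.025). These calls were near the threshold: Unc45b lost its call without RRR array 3 (adjusted p = 0.0573), Ankrd2 without RRR array 2 or 3 or wt array 3 (up to 0.0615), and Synpo2l without any 1 array other than wt array 3 (up to 0.0905). The list held 0 lower genes without RRR array 3 and 1 without RRR array 2, and 1 higher gene without any 1 array other than wt array 3. Ankrd1, a relative of Ankrd2 that YAP and TEAD factors also drive outside muscle, went the other way. It gave 183, 262 and 225 in ER-MyoD wt, 579, 512 and 666 in ER-MyoD RRR and 474, 368 and 560 with the empty retrovirus, a difference of 1.39 ± 0.14 (adjusted p = 2.49e-07).

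Calcium handling and energy metabolism lists held lower genes only. Of 29 calcium handling genes, Atp2a1, Hrc, Jsrp1 and Pvalb were lower (13.8%), none was higher and the median was -0.40. Among all genes 2.02% were lower and 3.34% higher, shares at which a list this short can hold no higher gene. Atp2a1, the calcium pump of the fast-muscle sarcoplasmic reticulum, gave 459, 420 and 437 in ER-MyoD wt, 217, 252 and 183 in ER-MyoD RRR and 41.7, 68.3 and 58.1 with the empty retrovirus, a difference of -1.04 ± 0.22 (adjusted p = 0.0037). Of the other 3, Hrc lost its call without RRR array 2 or wt array 2 (up to 0.0795), Pvalb without any 1 array other than RRR array 3 or wt array 1 (up to 0.0986), and Jsrp1 without any other than RRR array 3 or wt array 2 (up to 0.199). The list then held as few as 1 lower gene, without RRR array 2, and 2 without RRR array 1 or wt array 2 or 3.

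Of 30 genes of muscle energy metabolism, Cox8b, Hk2, Eno3 and Ckb were lower (13.3%) and the median was -0.25. None was higher, and the shares of all genes were 2.02% lower and 3.34% higher. Hk2, a hexokinase of muscle and fat that starts glucose breakdown, gave 946, 983 and 989 in ER-MyoD wt, 425, 482 and 456 in ER-MyoD RRR and 256, 154 and 225 with the empty retrovirus. Its difference of -1.05 ± 0.15 (adjusted p = 3.58e-05) had a small spread in both groups. Eno3, the muscle enolase, gave 1865, 2205 and 2508 against 1221, 1062 and 970, a difference of -0.92 ± 0.15 (adjusted p = 0.000205). Cox8b, a striated-muscle subunit of cytochrome c oxidase, gave 1428, 1918 and 1722 against 795, 720 and 682, a difference of -1.12 ± 0.26 (adjusted p = 0.00784). Ckb, the cytosolic brain-type creatine kinase, differed by -0.48 ± 0.13 and lost its call without any 1 array other than wt array 2 (adjusted p up to 0.12). For the muscle creatine kinase Ckm the probe set used, which had the higher mean over all 30 arrays on the log2 scale, gave 0.42 ± 0.25. Its other probe set was the brighter at 24 h, with mean signals of 703.8 in ER-MyoD wt and 280.8 in ER-MyoD RRR, and gave -1.25. Neither passed.

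The acetylcholine receptor list held 16 genes, of which the subunits Chrnd and Chrnb1 were lower (12.5%) and none was higher. Among all genes 2.02% were lower and 3.34% higher. Chrnd gave 252, 199 and 237 in ER-MyoD wt and 73.1, 173 and 60.3 in ER-MyoD RRR, where array 2 stood above the other arrays of its group. Its difference was -1.30 ± 0.26 (adjusted p = 0.00167). Chrnb1 differed by -0.69 ± 0.18 (adjusted p = 0.0206), and its call was lost without RRR array 1 or 2 or wt array 2 (up to 0.087). The alpha subunit Chrna1 and the embryonic gamma subunit Chrng differed by -0.97 ± 0.32 (adjusted p = 0.0786) and -0.83 ± 0.28 (adjusted p = 0.0916). Both passed in a fit of the 6 arrays alone (adjusted p = 0.00616 each) and with median-centred arrays (0.0485 and 0.046). Chrng gave 4485, 5271 and 4270 against 2449, 2202 and 2711, without overlap.

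**Figure D2:**
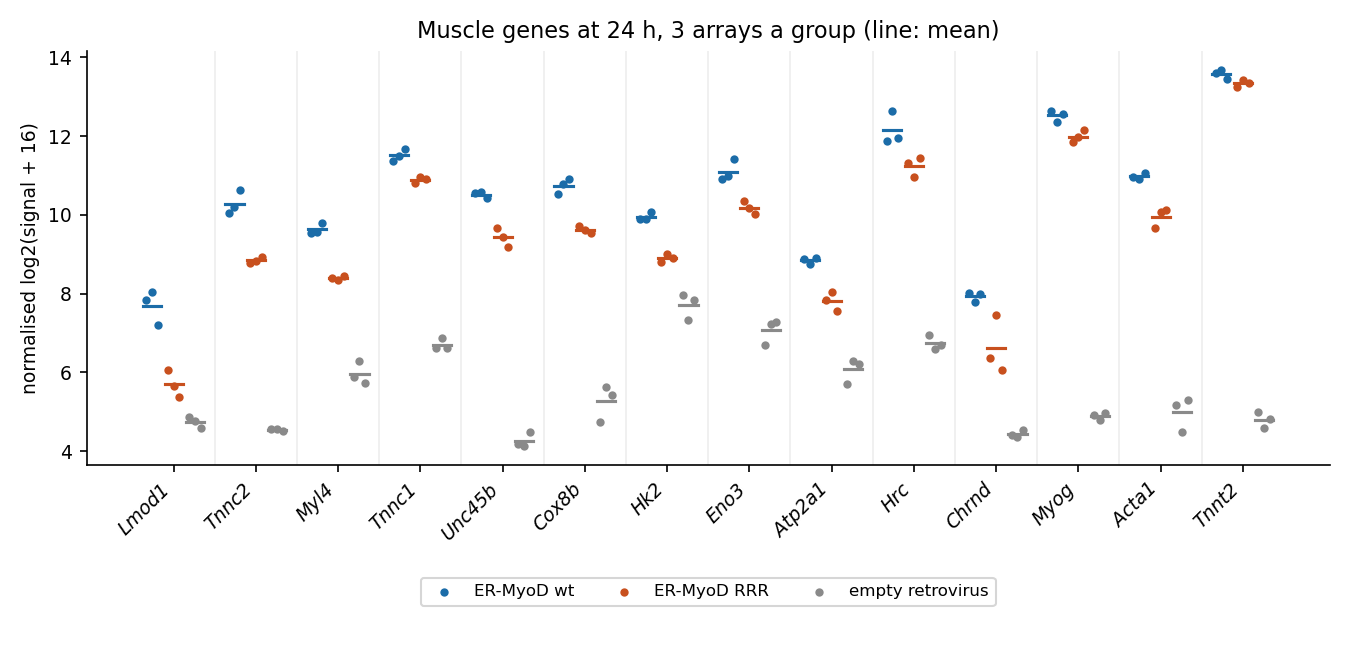
Points are single arrays at 24 h as normalised log2(signal + 16), lines are means of 3 arrays, and colours separate ER-MyoD wt, ER-MyoD RRR and the empty retrovirus, for 14 muscle genes along the x axis. The ER-MyoD RRR arrays lie below the ER-MyoD wt arrays and above those of the empty retrovirus; Myog, Acta1 and Tnnt2 show this order without having passed the test.

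Myogenic regulators were called in both directions. Of 30 measured, Ankrd2, Mymx and Hes6 were lower and Pax3, Smyd1 and Nfix were higher (10% each way). Among all genes 2.02% were lower and 3.34% higher. The median over the list was -0.28, and became -0.18 without RRR array 1 and -0.19 without RRR array 3. Myog, which encodes myogenin and acts just after MyoD, gave 6196, 6079 and 6063 in ER-MyoD wt, 3577, 3594 and 4480 in ER-MyoD RRR and 16.7, 12.9 and 15.4 with the empty retrovirus. Its difference of -0.54 ± 0.22 did not pass (adjusted p = 0.195). The MADS-box factors Mef2a and Mef2c differed by -0.28 ± 0.25 and -0.64 ± 0.21 (adjusted p = 0.673 and 0.0813), and Mymk, a membrane protein of myoblast fusion, by -0.39 ± 0.26 (adjusted p = 0.489). Mef2c passed in a fit of the 6 arrays alone (adjusted p = 0.0448). Hes6, a helix-loop-helix protein that favours differentiation, gave 1221, 947 and 1341 against 716, 697 and 680, a difference of -0.67 ± 0.16 (adjusted p = 0.0114) that did not pass without wt array 1 or 3 (up to 0.092). Nfix, a nuclear factor I protein of fetal muscle, was higher, at 1208, 1393 and 1324 in ER-MyoD wt against 2228, 2234 and 1927, and 3276, 4539 and 3799 with the empty retrovirus. Its difference was 0.76 ± 0.10 (adjusted p = 1.9e-05), and with median-centred arrays it did not pass (adjusted p = 0.114). Leaving out single arrays left between 0 and 2 lower regulators, with 0 without wt array 3 and 1 without wt array 1 or RRR array 2 or 3, and 1 higher regulator without RRR array 1 or 2.

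Among 29 partners of MyoD in acetylation and chromatin remodelling, 2 were lower and 1 was higher (6.90% and 3.45%). The shares of all genes were 2.02% lower and 3.34% higher, so the higher share was near that of all genes. Smarcd3, which encodes the BAF60c subunit that joins MyoD to the SWI/SNF remodelling complex, gave 1317, 1464 and 1139 in ER-MyoD wt, 651, 591 and 754 in ER-MyoD RRR and 320, 321 and 328 with the empty retrovirus. Its difference was -0.90 ± 0.16 (adjusted p = 0.000759). The coactivator Ncoa1 and the deacetylase Hdac1 passed narrowly, at -0.54 ± 0.16 and 0.44 ± 0.11 (adjusted p = 0.0453 and 0.0183). Ncoa1 did not pass once any 1 array was left out (0.0615 to 0.199), nor did Hdac1 without RRR array 1 or 2 or wt array 2 (up to 0.11).

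The lowest genes by fitted difference included Lmod1, Coq8a, Slc22a4, Gal3st2, Asb2 and Top1mt. Lmod1, an actin filament nucleator best known from smooth muscle, gave 217, 243 and 144 in ER-MyoD wt, 57.5, 40.4 and 30.1 in ER-MyoD RRR and 15.3, 12.2 and 7.71 with the empty retrovirus, a difference of -1.99 ± 0.30 (adjusted p = 9.06e-05). Slc22a4, an organic cation transporter, gave 151, 147 and 206 against 61.3, 63.1 and 13.8, a difference of -1.82 ± 0.29 (adjusted p = 0.000176). Coq8a, an atypical kinase needed for coenzyme Q synthesis, differed by -1.85 ± 0.30 (adjusted p = 0.000205), although its dimmer probe set gave 0.27. Gal3st2, a galactose sulfotransferase with close copies in the mouse genome, differed by -1.64 ± 0.29 (adjusted p = 0.000583).

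Asb2, a ubiquitin ligase subunit that directs the breakdown of filamins in differentiating muscle, gave 524, 519 and 529 in ER-MyoD wt and 222, 188 and 135 in ER-MyoD RRR. Its difference was -1.57 ± 0.27 (adjusted p = 0.000473). Top1mt, the mitochondrial topoisomerase, gave 412, 482 and 527 in ER-MyoD wt, 187, 171 and 132 in ER-MyoD RRR and 259, 215 and 235 with the empty retrovirus. Here the ER-MyoD RRR arrays lay below those of the empty retrovirus as well, by 0.50 ± 0.16 on the log2 scale (adjusted p = 0.0289 over the genes of that comparison). Its difference from ER-MyoD wt was -1.56 ± 0.16 (adjusted p = 3.95e-07).

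The sequences of 4 promoter windows are given, to show where the E-box CAGCTG, which MyoD and E proteins favour, lies near genes that were lower, beside a higher gene without it. Each window is the 250 bases before the start of the gene in RefSeq on GRCm38.p6, on the strand of the gene, and capitals mark CAGCTG, which reads the same on both strands. Lmod1, Atp2a1 and Cox8b were lower and were chosen for holding a match; Svep1 was higher and holds none. The windows are Lmod1 at chr1:135324563-135324812 on the plus strand, Atp2a1 at chr7:126463074-126463323 on the minus strand, Cox8b at chr7:140900447-140900696 on the minus strand and Svep1 at chr4:58206597-58206846 on the minus strand.
Lmod1: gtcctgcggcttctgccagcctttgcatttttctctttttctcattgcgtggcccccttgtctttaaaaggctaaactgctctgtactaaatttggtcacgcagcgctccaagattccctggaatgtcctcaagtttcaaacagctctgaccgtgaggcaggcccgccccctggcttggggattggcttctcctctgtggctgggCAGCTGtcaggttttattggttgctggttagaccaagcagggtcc
Atp2a1: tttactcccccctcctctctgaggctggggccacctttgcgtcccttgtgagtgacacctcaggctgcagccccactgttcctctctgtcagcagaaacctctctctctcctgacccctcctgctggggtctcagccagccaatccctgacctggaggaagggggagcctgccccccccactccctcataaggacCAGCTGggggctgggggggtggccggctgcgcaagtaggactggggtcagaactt
Cox8b: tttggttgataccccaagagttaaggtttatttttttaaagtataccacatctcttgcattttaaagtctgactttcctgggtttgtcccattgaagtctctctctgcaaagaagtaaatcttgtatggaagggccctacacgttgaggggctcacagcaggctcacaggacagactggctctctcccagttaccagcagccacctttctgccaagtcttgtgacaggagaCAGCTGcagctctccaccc
Svep1: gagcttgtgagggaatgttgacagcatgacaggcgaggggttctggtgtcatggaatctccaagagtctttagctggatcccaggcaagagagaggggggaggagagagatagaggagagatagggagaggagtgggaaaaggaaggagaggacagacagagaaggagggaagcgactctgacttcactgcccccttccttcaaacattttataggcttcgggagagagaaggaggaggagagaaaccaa
The match begins 45 bases before the start of Lmod1, 55 before that of Atp2a1 and 19 before that of Cox8b. Over all windows of measured genes, 2324 of 18109 (12.8%) held CAGCTG. The share was 14.7% for the genes lower in ER-MyoD RRR (59 of 402 windows), 13.5% for the higher genes (83 of 613) and 17.8% for the genes induced at 12 h (120 of 673). These windows belong to 14452 of the 18193 genes. A match describes letters and is not a measured binding site.

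The extracellular matrix lists of proteoglycans, proteases and collagens held higher genes and no lower ones in ER-MyoD RRR. Of 37 proteoglycans and elastic fibre proteins, 15 were higher (40.5%) and none was lower, with a median of 0.40. Of 33 matrix proteases and inhibitors, 10 were higher (30.3%), none was lower and the median was 0.27. Of 37 collagen chains, 10 were higher (27.0%), none was lower and the median was 0.28. These counts shrank with median-centred arrays, to 10, 5 and 2, with medians of 0.22, 0.19 and 0.17, and without RRR array 1 the collagens numbered 6. In a fit of the 6 arrays alone the counts were 10, 6 and 4. The list of integrins and laminins did not share this: of 29 genes, 1 was higher (3.45%, against 3.34% of all genes). None of them was lower, and the median was 0.11.

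Dcn, which encodes the small proteoglycan decorin, gave 2684, 2636 and 2015 in ER-MyoD wt, 5912, 5205 and 6271 in ER-MyoD RRR and 8903, 11223 and 8563 with the empty retrovirus. The groups did not overlap, and its difference was 1.26 ± 0.13 (adjusted p = 1.98e-07). Thbs2, the matricellular thrombospondin 2, gave 1198, 1072 and 997 against 2306, 2176 and 2170, a difference of 1.10 ± 0.13 (adjusted p = 3.54e-06). Lox, the enzyme that cross-links collagen and elastin, gave 506, 382 and 480 against 1002, 1004 and 783, a difference of 1.07 ± 0.13 (adjusted p = 6.13e-06). Its other, dimmer probe sets gave -0.32 and 0.30, and with their mean Lox did not pass. Postn, the matricellular protein periostin, gave 1618, 1700 and 1438 against 3072, 2934 and 2640, a difference of 0.94 ± 0.12 (adjusted p = 1.13e-05). Svep1, a large secreted adhesion protein, gave 23.4, 16 and 21.7 in ER-MyoD wt, 171, 113 and 150 in ER-MyoD RRR and 156, 192 and 198 with the empty retrovirus. Its difference was 2.05 ± 0.24 (adjusted p = 2.09e-06). The ER-MyoD RRR arrays overlapped those of the empty retrovirus only in part, with 113 and 150 below the lowest of them.

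Among the proteases, Mmp3, the stromelysin that cuts matrix proteins, gave 219, 262 and 258 in ER-MyoD wt, 798, 905 and 576 in ER-MyoD RRR and 921, 839 and 748 with the empty retrovirus, a difference of 1.62 ± 0.14 (adjusted p = 4.42e-08). Adamts1, a protease of proteoglycans, gave 298, 274 and 246 against 781, 711 and 590, above the 455, 341 and 413 of the empty retrovirus, and differed by 1.36 ± 0.18 (adjusted p = 1.82e-05). The gelatinase Mmp2 differed by 0.90 ± 0.13 (adjusted p = 3.5e-05) and its inhibitor family member Timp3 by 0.94 ± 0.14 (adjusted p = 9.19e-05), although Timp3 did not pass with median-centred arrays (adjusted p = 0.0513). Of the collagens, Col5a1 differed by 0.97 ± 0.18 (adjusted p = 0.00085), Col6a1 by 0.58 ± 0.12 (adjusted p = 0.00208) and Col3a1 by 0.56 ± 0.11 (adjusted p = 0.00242). With median-centred arrays Col6a1 and Col3a1 did not pass (adjusted p = 0.278 and 0.423).

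Markers of fibroblasts, the cell type that was transduced, were higher too. Of 34 measured, 12 were higher (35.3%) and Snai1 was lower (2.94%), against 3.34% and 2.02% of all genes. The median over the markers was 0.47 and became 0.28 without wt array 3. With median-centred arrays 5 markers were higher. Snai1 did not pass without RRR array 2 or 3 or wt array 1. Their summed signal ran from 28868 to 34687 in ER-MyoD wt, from 39109 to 41338 in ER-MyoD RRR and from 48243 to 55585 with the empty retrovirus. Dpt, the matrix protein dermatopontin, gave 1511, 2002 and 1463 against 4646, 4286 and 4644, and 6203, 8583 and 6887 with the empty retrovirus, a difference of 1.51 ± 0.14 (adjusted p = 4.97e-08). Twist2, a helix-loop-helix repressor that can bind MyoD, gave 217, 246 and 258 against 820, 513 and 631, a difference of 1.42 ± 0.15 (adjusted p = 3.13e-07). Islr, a secreted marker of mesenchymal cells, gave 130, 102 and 120 against 275, 253 and 309, both far below the 1705, 1988 and 1733 of the empty retrovirus, and differed by 1.16 ± 0.20 (adjusted p = 0.000563). Pdgfra, the receptor that marks fibroblasts, differed by 1.46 ± 0.41 (adjusted p = 0.0292), a call lost without RRR array 1 or 3 or wt array 3 (up to 0.205). No marker was used to separate cells, so the part of cells that had not differentiated was not tested.

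Chemokines and immediate early genes contained higher members. Of 29 chemokines, Ccl11, Ccl7, Ccl2, Cxcl12 and Cxcl1 were higher (17.2%) and none was lower, against 3.34% and 2.02% of all genes. Ccl2, which attracts monocytes, gave 1164, 1247 and 1078 in ER-MyoD wt, 2730, 2622 and 3110 in ER-MyoD RRR and 4504, 5829 and 5497 with the empty retrovirus, a difference of 1.36 ± 0.11 (adjusted p = 1.67e-08). Its relative Ccl7 gave 280, 303 and 350 against 873, 653 and 1112, a difference of 1.49 ± 0.16 (adjusted p = 5.29e-07). Cxcl12, the ligand of the receptor CXCR4, differed by 1.28 ± 0.13 (adjusted p = 2.52e-07), and another of its probe sets gave 1.40. Cxcl1, which attracts neutrophils, gave 338, 336 and 356 against 587, 732 and 648 and differed by 0.95 ± 0.20 (adjusted p = 0.0037), but not with median-centred arrays (0.0758). Ccl11, the eosinophil attractant eotaxin, differed by 1.55 ± 0.39 (adjusted p = 0.0146), a call lost without RRR array 2 or 3 or wt array 1 (up to 0.0622). Vcam1, an adhesion molecule of mesenchymal cells, gave 271, 233 and 233 against 696, 685 and 509, a difference of 1.34 ± 0.12 (adjusted p = 4.85e-08).

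Of 34 serum response and immediate early genes, 9 were higher (26.5%) and Klf10 was lower (2.94%), against 3.34% and 2.02% of all genes. The higher genes numbered 4 without RRR array 1, and 3 without RRR array 2, without wt array 1 or with median-centred arrays. In a fit of the 6 arrays alone 1 was higher and none was lower. Klf10 did not pass without RRR array 3. Egr1, a zinc finger factor that growth factors switch on, gave 381, 339 and 295 in ER-MyoD wt and 889, 834 and 427 in ER-MyoD RRR, where array 3 lay lowest, a difference of 1.04 ± 0.19 (adjusted p = 0.000883). Ccn1, a secreted target of YAP and TEAD, gave 303, 243 and 262 against 579, 655 and 486, a difference of 1.08 ± 0.17 (adjusted p = 0.000102). Amot, a junction protein that binds YAP, gave 154, 72.4 and 47.6 against 339, 323 and 303 on the probe set used, a difference of 1.83 ± 0.24 (adjusted p = 1.62e-05), while its other probe sets gave -0.16 and 0.61. Spry2, a feedback inhibitor of growth factor signalling, gave 185, 227 and 246 against 470, 427 and 685, a difference of 1.22 ± 0.26 (adjusted p = 0.00413). Id3, which keeps helix-loop-helix factors from binding DNA, gave 82.7, 91.9 and 74.2 against 184, 214 and 141, a difference of 0.95 ± 0.19 (adjusted p = 0.00213).

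**Figure D3:**
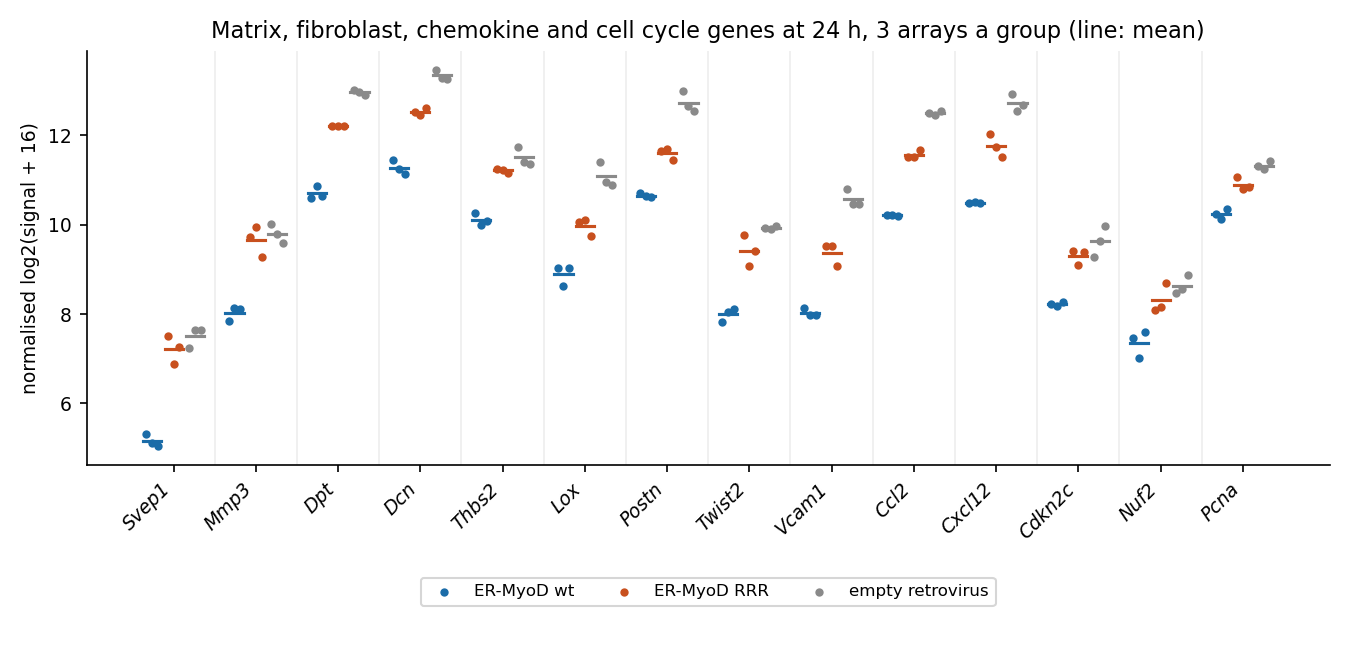
Points are single arrays at 24 h as normalised log2(signal + 16), lines are means of 3 arrays, and colours separate the groups, for 14 genes of matrix, fibroblasts, chemokines and cell cycle along the x axis. For each gene the ER-MyoD RRR arrays lie above the ER-MyoD wt arrays; their means lie below those of the empty retrovirus.

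Genes of proliferation were higher in ER-MyoD RRR, with calls that depended on scaling. Of 45 mitosis and cytokinesis genes, 17 were higher (37.8%), none was lower, 42 had a difference above 0 and the median was 0.52. Of 41 DNA replication genes, 11 were higher (26.8%), none was lower and the median was 0.38. Among all genes 3.34% were higher and 2.02% lower. With median-centred arrays 2 mitosis genes and 1 replication gene passed, at medians of 0.42 and 0.28, and in a fit of the 6 arrays alone 3 and 1 passed. The replication count was 5 without RRR array 1, 6 without wt array 3 and 7 without RRR array 3. The summed signal of the mitosis list ran from 8665 to 9711 in ER-MyoD wt, from 12747 to 13669 in ER-MyoD RRR and from 16698 to 20421 with the empty retrovirus, without overlap.

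Nuf2, a subunit of the kinetochore, gave 165, 103 and 185 in ER-MyoD wt, 262, 276 and 387 in ER-MyoD RRR and 351, 361 and 465 with the empty retrovirus, a difference of 0.96 ± 0.15 (adjusted p = 0.000176; 0.00307 with median-centred arrays and 0.0664 in the fit of the 6 arrays alone). Cdc20, an activator of the anaphase-promoting complex, differed by 1.15 ± 0.20 (adjusted p = 0.000473) on its used probe set and by 0.30 on another of similar brightness. Cdk1, the kinase that drives mitosis, gave 442, 600 and 656 against 868, 778 and 1075, a difference of 0.73 ± 0.13 (adjusted p = 0.000583). Birc5, which encodes survivin, differed by 0.78 ± 0.14 (adjusted p = 0.000779). The replication clamp Pcna gave 1183, 1180 and 1196 against 1992, 1606 and 1718, a difference of 0.65 ± 0.10 (adjusted p = 0.000169). The helicase subunit Mcm5 and the primase Prim1 differed by 0.63 ± 0.13 and 0.61 ± 0.12 (adjusted p = 0.00194 and 0.00231). With median-centred arrays Cdc20, Cdk1, Birc5, Pcna, Mcm5 and Prim1 did not pass (adjusted p from 0.0534 to 0.192).

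Inhibitors of the cell cycle did not move together. Of 22 genes of cell cycle exit, 2 were higher and 2 lower (9.09% each way), against 3.34% and 2.02% of all genes. Cdkn2c, which encodes the CDK inhibitor p18, gave 292, 274 and 286 in ER-MyoD wt and 650, 520 and 620 in ER-MyoD RRR, a difference of 1.07 ± 0.13 (adjusted p = 7.4e-06). Ccnd3, the D-type cyclin that rises as myoblasts differentiate, gave 1790, 1936 and 1518 against 943, 989 and 916, a difference of -0.78 ± 0.19 (adjusted p = 0.0093). Cdkn1a, which encodes the CDK inhibitor p21, gave 5992, 7879 and 6712 against 5360, 4537 and 5120, and its difference of -0.32 ± 0.17 did not pass (adjusted p = 0.344). The retinoblastoma gene Rb1 differed by -0.31 ± 0.23 (adjusted p = 0.555). Without single arrays the list held between 1 and 3 higher genes, with 1 without RRR array 1 or wt array 1 or 2, and 1 lower gene without RRR array 1 or 3 or wt array 1 or 2.

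Smooth muscle genes split. Of 23, 4 were lower (Lmod1, Smtn, Actg2 and Tagln) and 4 were higher (Ccn2, Cnn2, Cald1 and Actn1), 17.4% each way. The shares of all genes were 2.02% lower and 3.34% higher. Smtn, a smooth muscle actin-binding protein, gave 631, 516 and 501 against 195, 309 and 315, a difference of -1.01 ± 0.20 (adjusted p = 0.00195). Actg2, enteric smooth muscle actin, differed by -0.95 ± 0.27 (adjusted p = 0.0316), a call lost without RRR array 1 or 2 or wt array 1 or 2 (up to 0.142). The higher genes numbered 0 with median-centred arrays, and 2 without RRR array 1 or 3 or wt array 1 or 3.

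Of 20 genes of cholesterol synthesis and uptake, Dhcr7, Lss and Hsd17b7 were lower (15%) and Insig1 was higher (5%). Among all genes 2.02% were lower and 3.34% higher. Lss, which closes the sterol ring, gave 2537, 2794 and 2199 against 1523, 1554 and 1463, and 510, 608 and 730 with the empty retrovirus, a difference of -0.63 ± 0.13 (adjusted p = 0.00217). Hsd17b7, a later enzyme of the pathway, differed by -0.61 ± 0.14 (adjusted p = 0.00568), while its dimmer probe sets gave -0.15, -0.06 and -0.06. With the mean of their probe sets neither Lss nor Hsd17b7 passed, which left 1 lower gene in the list. Dhcr7, its last enzyme, differed by -1.04 ± 0.24 (adjusted p = 0.00721) and lost its call without wt array 2 (adjusted p = 0.0688). Insig1, which holds back sterol synthesis, was not among the higher genes without RRR array 2 or 3 or wt array 3. In fusion and adhesion, 5 of 30 genes were higher (16.7%) and 2 lower (6.67%), against 3.34% and 2.02% of all genes. The 2 lower genes, Mymx and Cdh15, did not pass once any 1 array was left out. Cdh15, the muscle cadherin, differed by -0.55 ± 0.17 (adjusted p = 0.0498).

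The highest gene by fitted difference was Aldh1a1, an enzyme of retinoic acid synthesis, at 118, 126 and 20.5 in ER-MyoD wt, 327, 333 and 478 in ER-MyoD RRR and 7.98, 9.64 and 4.58 with the empty retrovirus. wt array 3 lay below the other arrays of its group, and the difference was 2.20 ± 0.41 (adjusted p = 0.000883). Cpa1, a digestive carboxypeptidase gene, gave 21.0, 28.0 and 54.5 against 120, 168 and 167, and 6.61, 14.4 and 6.79 with the empty retrovirus, a difference of 1.72 ± 0.21 (adjusted p = 4.22e-06). Mest, an imprinted gene, gave 253, 208 and 255 against 487, 461 and 513, and 77.8, 134 and 85.4 with the empty retrovirus, a difference of 1.01 ± 0.24 (adjusted p = 0.00978; 0.0549 with median-centred arrays). For these genes ER-MyoD RRR lay farther from the empty retrovirus than ER-MyoD wt did. Tonsl, a protein of replication fork repair, and Pdlim2, an adaptor that binds actinin, differed by 1.56 ± 0.28 and 1.67 ± 0.16 (adjusted p = 0.000598 and 8.27e-08).

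Lists without calls were the 27 interferon response genes, the 15 secreted Wnt antagonists, the 16 genes of the p38 MAP kinase pathway and the 18 muscle splicing regulators. Of all genes 5.36% passed, a share at which these lists and the marker lists below can hold few calls or none. Markers of other cell types gave few calls. Of 15 cardiac markers Gata4, a heart transcription factor, was lower, at 346, 299 and 304 against 156, 173 and 149, a difference of -1.01 ± 0.23 (adjusted p = 0.00803). Of 12 endothelial markers Egfl7, a secreted vessel protein, was lower, with a difference of -1.03 ± 0.18 (adjusted p = 0.000473). The dimmer probe sets of Egfl7 gave 0.28, -0.53 and -0.94. Of 11 adipocyte markers Lpl, lipoprotein lipase, was higher, at 622, 755 and 685 against 1335, 1238 and 1327, a difference of 0.99 ± 0.16 (adjusted p = 0.000285). Lpl sets the summed signal of that list, which ran from 988 to 1207 in ER-MyoD wt and from 1696 to 1845 in ER-MyoD RRR. Of 16 neuronal markers, 1 was higher, and none of the macrophage, epithelial or cartilage and bone markers passed. Summed macrophage signal ran from 473 to 863 in ER-MyoD wt and from 828 to 913 in ER-MyoD RRR.

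**Figure D4:**
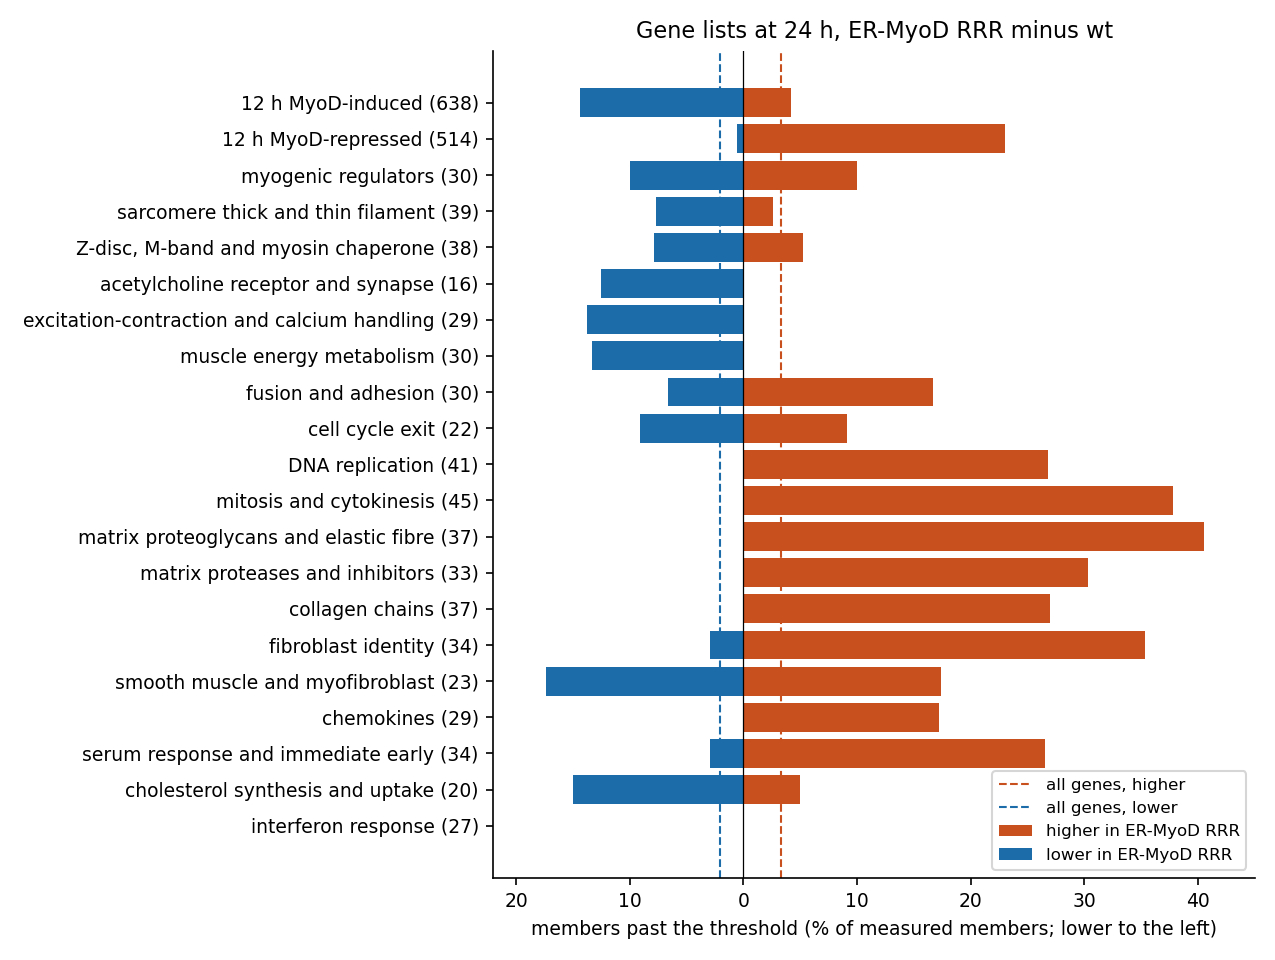
Bars give the share of measured members past the threshold at 24 h, in % of the number in parentheses, with genes higher in ER-MyoD RRR to the right and lower genes to the left; dashed lines are the shares of all genes, 3.34% and 2.02%. Matrix, fibroblast and proliferation lists extend to the right, and the calcium handling, energy and acetylcholine receptor lists extend to the left only.

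The 24 h difference was then set against that at 12 h, as the change of the ER-MyoD RRR minus wt difference between the times. The change passed for 58 of 18193 genes (0.319%), upwards for 54 (0.297%) and downwards for 4 (0.022%). With median-centred arrays 1 gene, Lox, passed, and in a fit of the 12 arrays of these groups alone 15 did. Without wt array 1 the count was 31 and without RRR array 1 it was 36. The values that follow are therefore those of the quantile-normalised arrays.

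Tnnc1 had a difference of -2.06 ± 0.15 at 12 h (adjusted p = 1.1e-09) and of -0.63 at 24 h, a change of 1.44 ± 0.21 (adjusted p = 0.00091; 0.0946 with median-centred arrays). Lox passed in opposite directions at the 2 times, with -0.54 ± 0.13 at 12 h (adjusted p = 0.0269) and 1.07 at 24 h, a change of 1.61 ± 0.19 (adjusted p = 5.54e-05; 0.0111 with median-centred arrays). Postn went from -0.35 ± 0.12 at 12 h (adjusted p = 0.179) to 0.94, a change of 1.30 ± 0.17 (adjusted p = 0.000348). Igf1, the muscle growth factor, went from -1.07 ± 0.21 at 12 h (adjusted p = 0.00405) to 0.48 ± 0.21 at 24 h, which did not pass (adjusted p = 0.22), a change of 1.55 (adjusted p = 0.0138). These values are of the probe set used, and its other probe sets gave 0.44, 0.00 and -0.11 at 24 h.

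The largest upward changes by the naming rule were those of Srpx2 (2.07), Vav2 (2.03), Tnni3k (1.93), Gm16364 (1.76), Col12a1 (1.73) and Pold3 (1.66). Srpx2, a secreted protein, gave 4.75, 16.9 and 7.03 in ER-MyoD wt and 79.7, 89.3 and 108 in ER-MyoD RRR at 24 h, a difference of 1.95 ± 0.29 (adjusted p = 8.34e-05), after -0.12 at 12 h. Vav2 differed by 1.53 ± 0.28 (adjusted p = 0.000763) on 1 of its 3 probe sets, the others giving -0.02 and -0.26. Pold3, a DNA polymerase delta subunit, differed by 1.47 ± 0.22 (adjusted p = 9.06e-05) on the probe set used, while its others gave 1.05 and 0.29. Gm16364, a predicted gene, differed by 1.03 ± 0.27 (adjusted p = 0.02) and lost that call without RRR array 1 or 2 or wt array 1 (up to 0.0983). Tnni3k and Col12a1 did not pass at 24 h, with 0.95 ± 0.30 and 0.33 ± 0.26. Another probe set of Tnni3k gave -0.07 at 24 h. Vav2, Tnni3k and Gm16364 were dim, with mean signals of 19.3, 8.65 and 8.785 in ER-MyoD wt at 24 h. Their means in ER-MyoD RRR were 82.6, 36.55 and 39.55. Pold3 and Srpx2 were dim too, with means of 23.3 and 9.55 in ER-MyoD wt and 101.9 and 92.19 in ER-MyoD RRR. Ptx3, the long pentraxin of innate immunity, gave 144, 105 and 144 against 340, 482 and 485, a difference of 1.65 ± 0.23 (adjusted p = 2.52e-05) after 0.16 at 12 h. Leaving out 1 of the 6 arrays at 24 h ended the change of Srpx2 without RRR array 3 or wt array 1 or 3 (adjusted p up to 0.0628), of Vav2 without wt array 1 (0.0528) and of Col12a1 without RRR array 1 or 3 or wt array 3 (up to 0.102). The changes of Tnni3k and Gm16364 were lost without any 1 array other than RRR array 3 (up to 0.124 and 0.102), and that of Ptx3 without any other than RRR array 1 (up to 0.0962).

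The 4 downward changes were those of Dynap (-1.96), Dynlt3 (-1.03), Xrcc6 (-0.80) and Ctsl (-0.70). Dynlt3, a dynein light chain, gave 637, 595 and 712 in ER-MyoD wt and 340, 351 and 299 in ER-MyoD RRR, a difference of -0.95 ± 0.16 (adjusted p = 0.000348) after 0.08 at 12 h. Xrcc6, the Ku70 protein of DNA end joining, gave 407, 532 and 410 against 223, 229 and 290, a difference of -0.86 ± 0.13 (adjusted p = 8.34e-05) after -0.06 at 12 h. Dynap and the protease Ctsl had differed at 12 h, by 1.59 ± 0.31 and 0.62 ± 0.10 (adjusted p = 0.00408 and 0.000448), and not at 24 h, with -0.37 ± 0.31 and -0.08 ± 0.10 (adjusted p = 0.63 and 0.784). The change of Dynap was lost without RRR array 2 or 3 or wt array 1 (adjusted p up to 0.137), of Ctsl without RRR array 1 or 3 or wt array 1 or 3 (up to 0.0599), of Dynlt3 without any 1 array other than wt array 2 (up to 0.11) and of Xrcc6 without any other than RRR array 3 (up to 0.136).

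**Figure D5:**
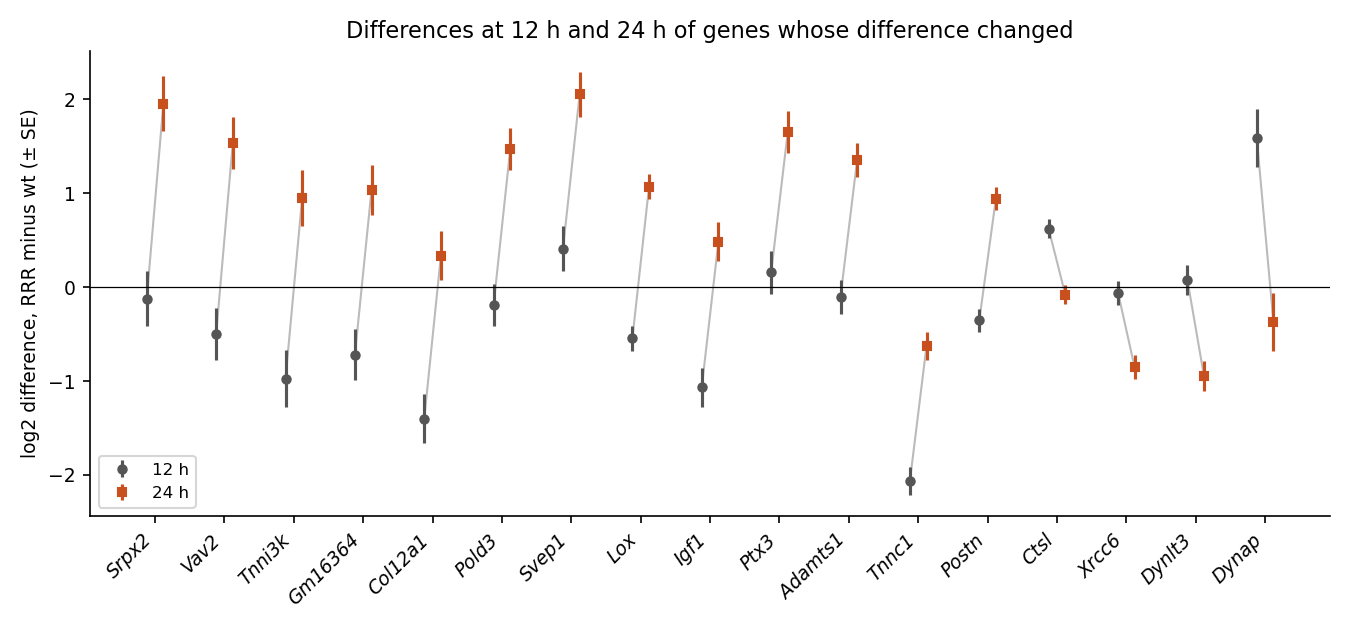
Points give the log2 difference of ER-MyoD RRR minus wt with its standard error at 12 h (circles) and at 24 h (squares), from 3 arrays a group, for 17 genes whose difference changed. Tnnc1 moves from -2.06 to -0.63, Lox from -0.54 to 1.07, and Xrcc6, Dynlt3, Ctsl and Dynap move down.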

How the data were processed

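Expression was measured on 30 arrays in 10 groups of 3, taken from the titles. The authors deposited linear signal intensities, between 0.0474 and 20986, by software not given in the sources used here. Each array had a mean of 150 once its outer 2% at either end was dropped, so the intensities had been scaled. Tests covered 45037 of 45101 probe sets, the rest being 64 controls. A single symbol was annotated for 34945, several for 932 and none here for 9160. Each of 18193 genes was represented by its probe set of highest mean. Values were quantile-normalised as log2(signal + 16), with no filter, and fitted with limma 3.58.1 (lmFit, eBayes with trend) in R 4.3.3 over all 30 arrays, which left 20 residual degrees of freedom. The number of arrays limits the precision. The code was checked on simulated data. Tables and plots used pandas 2.3.3 and matplotlib 3.10.9.

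The members, gene lists and tests were chosen with earlier results of these data known. Named genes were Myod1 and Myf5, the 15 highest and 15 lowest called genes with non-overlapping arrays, up to 4 members of each list by smallest p, a set of muscle and fibroblast genes, and the 6 largest changes from 12 h each way; not all are printed. Mymx, Smyd1, Snai1, Tagln, Ccn2, Actn1 and Klf10 were named after their values were seen. Replicate numbers showed no pairing between ER-MyoD RRR and wt at 24 h, where same-numbered deviations from the group means correlated at 0.0013, -0.007 and 0.039. Pairing among the other groups was not tested.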

Additional observations from a re-analysis of the deposited data

Results flagged for a closer look

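The ER-MyoD RRR minus wt difference changed from 12 h to 24 h for 58 genes by the test of the change itself in limma. On the log2 scale the change was 2.07 for Srpx2, 2.03 for Vav2, 1.93 for Tnni3k, 1.76 for Gm16364 and 1.73 for Col12a1. It was 1.66 for Pold3, 1.64 for Svep1, 1.61 for Lox, 1.55 for Igf1, 1.52 for Amot, 1.498 for Ptx3 and 1.46 for Adamts1. It was 1.44 for Tnnc1, 1.30 for Postn, 1.14 for Pdlim2 and 1.07 for Timp3. It was downward for Dynap (-1.96), Dynlt3 (-1.03), Xrcc6 (-0.80) and Ctsl (-0.70). With median-centred arrays the change of Lox passed, and that of none of the other genes named here did. No change of the 20 genes named here passed under every alternative run. Of those not described above, the change of Svep1 was lost without RRR array 1 or 3 or wt array 3 (adjusted p up to 0.0811), of Pdlim2 without wt array 1 or 3 (up to 0.0534) and of Amot without any 1 array other than wt array 1 (up to 0.102).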

How the results depend on the processing

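Genes past the threshold at 24 h numbered 475 with median-centred arrays (176 higher, 299 lower) and 433 in a fit of the 6 arrays alone (241 higher, 192 lower), against 975 (608 higher, 367 lower). The median of all genes was -0.08 with median centring. Leaving out 1 array gave 655 to 839 genes, 402 to 590 higher and 236 to 330 lower. The replicate block, with numbers that showed no pairing between ER-MyoD RRR and wt at 24 h, gave 1075. The change from 12 h passed for 31 genes on the values as deposited, 1 with median centring, 27 with the mean of probe sets, 15 with the 12 arrays alone, 25 without the trend, 31 to 69 without 1 array and 90 without 3 arrays that stood apart (ER-MyoD wt replicate 3 at 24 h, ER-MyoD RRR replicate 2 at 6 h and empty retrovirus replicate 1 at 12 h), an alternative chosen after seeing the data, under which 1122 genes passed at 24 h. The median of the genes induced at 12 h was -0.367 with median centring. Ckm turned to -0.41 with the mean of its probe sets. Dynap ranged from -0.712 to 0.0248 without 1 array. Of 86 called genes given with a difference, none changed direction under any alternative run, and 40 passed under all of them; called genes named without a difference were not followed. Calls lost with the mean of probe sets were those of Ccnd3, Cdc20, Cdh15, Coq8a, Hes6, Hsd17b7, Lox, Lss, Myl4, Ncoa1, Nfix, Synpo2l, Tpm3 and Vav2. Calls lost in the fit of the 6 arrays alone were those of Actg2, Aldh1a1, Cdc20, Cdh15, Cdk1, Chrnd, Ckb, Col3a1, Egr1, Gm16364, Hdac1, Hes6, Hrc, Id3, Jsrp1, Mcm5, Ncoa1, Nuf2, Pdgfra, Prim1, Tonsl and Vav2. Calls lost with a pseudocount of 1 were those of Actg2, Aldh1a1, Ankrd2, Ccl11, Cdh15, Cox8b, Gm16364, Jsrp1, Mest, Myl4, Ncoa1, Pdgfra, Pvalb, Synpo2l, Tnnc2 and Unc45b. Calls lost with median centring were those of Actg2, Birc5, Cdc20, Cdk1, Col3a1, Col6a1, Cxcl1, Hdac1, Mcm5, Mest, Nfix, Pcna, Pdgfra, Prim1, Timp3 and Tpm3. Of 23 genes followed that had not passed, 12 kept direction and result under every alternative run. Over all these genes and runs, 22 of 366 values passed. The causes were not tested. Signal near background limits dim genes.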
